A study of Danio rerio with 6 samples.

Results

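The microRNAs miR-10 and miR-196 are encoded inside the Hox gene clusters. They were followed here through small RNA sequencing of zebrafish embryos injected with MO-Tbx5a or with MO-Ct. Members were all mature miRNAs whose name is miR-10 or miR-196 followed by a letter and, where given, an arm. This name rule used no measured value, and it took 10 of the 230 mature miRNAs in the table, namely 6 of the miR-10 family and 4 of the miR-196 family. They are dre-miR-10a-5p, dre-miR-10b, dre-miR-10c and dre-miR-10d-5p, the opposite arms dre-miR-10a-3p and dre-miR-10d-3p, and dre-miR-196a, dre-miR-196b, dre-miR-196c and dre-miR-196d, where dre- stands for Danio rerio and is left out below.

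A mature miRNA guides a silencing complex to messenger RNAs that pair with its first bases, and lowers their translation or stability. Hox genes give cells their position along the head-to-tail axis, and the order of the genes in a cluster follows the order of their domains in the body. The miR-10 genes lie near the Hox4 and Hox5 genes. In zebrafish they are known to repress hoxb1a and hoxb3a, Hox genes with more anterior limits. The miR-196 genes lie near the Hox9 and Hox10 genes at the posterior side of the clusters, and in mouse miR-196 directs the cleavage of the Hoxb8 messenger. Tbx5a is the T-box transcription factor needed for the heart and the pectoral fin, and its human counterpart is mutated in Holt-Oram syndrome.

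In the RefSeq annotation of the zebrafish assembly GRCz12tu, all 10 precursors of the members were found by name, and 9 of them had Hox genes among the 5 annotated genes nearest on each side. The precursor mir-10c lay between hoxb5a and hoxb4a, mir-10b-2 between hoxc5a and hoxc4a, and mir-10b-1 between hoxd4a and hoxd9a. The precursor mir-10a lay inside si:busm1-227h09.4p and hoxb1b as annotated, with hoxb5b on one side and skap1 on the other. By the same annotation mir-10c lay inside hoxb3a, mir-10b-1 inside hoxd3a, and mir-10b-2 and mir-196a-1 inside hoxc3a. The exception was mir-10d, which lay between lnpk and mtx2, with 0 Hox genes among those 5 on each side. It marks the place of a duplicated HoxD cluster that has lost its Hox genes. Of the miR-196 precursors, mir-196b lay between hoxb10a and hoxb9a, mir-196a-1 between hoxc10a and hoxc9a, mir-196d between hoxa10b and hoxa9b, and mir-196c between hoxc11b and hoxc6b. The precursor mir-196a-2 lay next to hoxa10ap, and inside evx1 and hoxa9a as annotated. The annotation gave names and neighbours only, since the build behind the deposited values is not given in the sources used here.

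The embryos were of the strain AB and were injected at the 1-cell stage with 1.5 ng of a morpholino, either MO-Tbx5a, directed at tbx5a, or the control MO-Ct. RNA came from batches of 50 whole embryos, and the methods describe the batches at 24 hpf as independent. At 24 hours post fertilization (hpf) each morpholino had 2 libraries, called replicates 1 and 2, and at 48 hpf each had 1. The values are normalized reads, which are reads divided by a size factor for each library. A morpholino blocks translation, so small RNA libraries do not show whether Tbx5a itself was lowered. The libraries at 48 hpf are named as labelled, since other material of the study left their assignment uncertain. In whole embryos, fewer cells of a type and less RNA per cell cannot be told apart.

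The depth of the libraries is uncertain. Nearly all values of a library are multiples of a smallest step. If that step were 1 read, the libraries would hold 1699876 to 3148888 reads on mature miRNAs. The tally of miRNA reads given in the study's supplement is lower for all 6 libraries. At 48 hpf that tally is larger for MO-Tbx5a, while the reads by the step are larger for the library labelled MO-Ct. The miR-430 family, which clears maternal messengers in the early embryo, took 46.0% to 58.7% of the normalized reads at 24 hpf, 15.2% in the library labelled MO-Ct at 48 hpf and 5.15% in the one labelled MO-Tbx5a. The log2 ratio between replicates had an SD over 210 miRNAs of 0.44 in MO-Tbx5a and 0.39 in MO-Ct. Whether the independent batches came from different clutches is not stated. The limma p values below rest on the spread between replicates at 24 hpf, to which the libraries at 48 hpf add nothing. In the main fits that spread is largely or wholly its trend over all miRNAs rather than that of the single miRNA.

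The members spanned more than 3 orders of magnitude, and the miR-10 5p arms were among the most abundant miRNAs of the embryo. By rank among the 230, dre-miR-10b was at place 3 in 3 of the libraries at 24 hpf and at place 2 in MO-Ct replicate 2, and at 48 hpf it was at place 1 in the library labelled MO-Ct and at place 2 in the one labelled MO-Tbx5a. Its level was 420695 and 400572 normalized reads in MO-Ct and 356079 and 355263 in MO-Tbx5a at 24 hpf, and 228050 and 152592 in the libraries labelled MO-Ct and MO-Tbx5a at 48 hpf. The libraries at 48 hpf were thus both below all 4 libraries at 24 hpf. Members of a family are close in sequence and differ at few bases, so reads could have been assigned to the wrong one. The libraries do not separate loci that give the same mature miRNA: the rows of mir-10b-1 and mir-10b-2 differed by 0.579% to 1.24%, and those of mir-196a-1 and mir-196a-2 by at most 0.0956%.

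**Figure D1:**
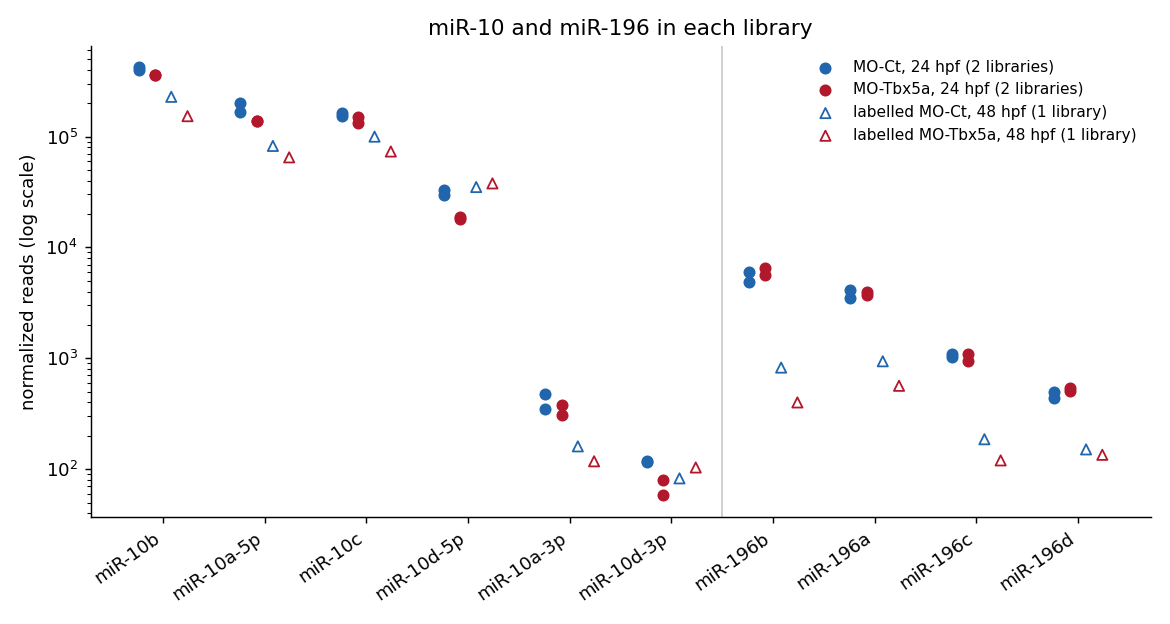
Normalized reads, on a log scale, of each of the 10 members in each of the 6 libraries. Filled circles are libraries at 24 hpf and open triangles those at 48 hpf, in blue for MO-Ct and in red for MO-Tbx5a. All 4 miR-196 members are lower in both triangles than in all circles, while miR-10d-5p is highest in the triangles.

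By mean level at 24 hpf the order was miR-10b, miR-10a-5p, miR-10c, miR-10d-5p, miR-196b, miR-196a, miR-196c, miR-196d, miR-10a-3p and miR-10d-3p. Ligation of adapters differs between sequences, so this is an order of reads rather than of molecules. In it, miR-10a-5p and miR-10c overlapped over the 4 libraries, with miR-10a-5p ahead in 3 of them. miR-196d and miR-10a-3p overlapped as well, and the other neighbours did not. At 48 hpf miR-10c stood above miR-10a-5p in both libraries, and miR-196a above miR-196b in both, although the ranges of each pair overlapped.

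Between 24 and 48 hpf, 9 of the 10 members differed, 8 of them lower at 48 hpf and 1 higher. Among all 214 miRNAs tested, 69.2% passed the same test, and of the 214, 43% passed lower and 26.2% higher, so most of the miRNAs in these embryos differed between the stages. The median log2 fold change, 48 over 24 hpf, was -1.28 over the members and -0.29 over all miRNAs tested. The ranges of the stages did not overlap for 9 members, against 65% of all miRNAs.

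The 4 miR-196 members fell most. Of the 214 changes ordered from the lowest, miR-196b was at place 5, miR-196c at 7, miR-196a at 10 and miR-196d at 19. The level of miR-196b was 6024 and 4895 normalized reads in MO-Ct and 6573 and 5669.6 in MO-Tbx5a at 24 hpf, against 824 and 399.6 in the libraries labelled MO-Ct and MO-Tbx5a at 48 hpf. It was 9.46-fold lower at 48 hpf, with a log2 fold change of -3.32 ± 0.14 (SE, limma). Its rank fell from 31 or 32 of 230 at 24 hpf to 78 and 104 at 48 hpf.

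miR-196a, the second miR-196 member by level at 24 hpf, had 4126 and 3523 normalized reads in MO-Ct and 3689 and 3942 in MO-Tbx5a at 24 hpf, and 939 and 565 in the libraries labelled MO-Ct and MO-Tbx5a at 48 hpf. This was 5.08-fold lower, with a log2 fold change of -2.39 ± 0.15 (SE). The 24 hpf values lay close together whichever morpholino was injected, and both 48 hpf values were far under them. miR-196c had 1029 and 1091 in MO-Ct, 936 and 1103 in MO-Tbx5a, then 186 and 119.9 in the libraries labelled MO-Ct and MO-Tbx5a at 48 hpf. miR-196c was thereby 6.80-fold lower at 48 hpf, a log2 fold change of -2.78 ± 0.17 (SE). miR-196d had 497 and 434 in MO-Ct, 539 and 509 in MO-Tbx5a, then 151 and 135 at 48 hpf. It fell least of the 4, by 3.47-fold, with a log2 fold change of -1.78 ± 0.18 (SE).

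With the deposited size factors the 3 abundant miR-10 members of the Hox clusters also fell, by less. Their direction turned when the libraries were scaled to their totals, as given below. miR-10b was 2.01-fold lower at 48 hpf, a log2 fold change of -1.03 ± 0.14 (SE). miR-10a-5p had 201571 and 167164 normalized reads in MO-Ct, 138946 and 139107 in MO-Tbx5a, then 82251 and 64878 at 48 hpf, 2.20-fold lower with a log2 fold change of -1.13 ± 0.14 (SE). Both libraries at 48 hpf were below the lowest at 24 hpf. miR-10c had 162073 and 152819 in MO-Ct, 131722 and 150478 in MO-Tbx5a, then 99735 and 73254 at 48 hpf, 1.73-fold lower with a log2 fold change of -0.80 ± 0.14 (SE). The opposite arm miR-10a-3p had 477 and 346 in MO-Ct, 379.9 and 309 in MO-Tbx5a, then 160 and 118 at 48 hpf. It was 2.72-fold lower, a log2 fold change of -1.43 ± 0.19 (SE).

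miR-10d, from the locus without Hox neighbours, went the other way. miR-10d-5p had 29477 and 32978 normalized reads in MO-Ct and 17879 and 18778 in MO-Tbx5a at 24 hpf, and 35009 and 37772 in the libraries labelled MO-Ct and MO-Tbx5a at 48 hpf. The 48 hpf values were both above all 4 values at 24 hpf, but they were close to those of MO-Ct at 24 hpf and about double those of MO-Tbx5a. Its log2 fold change between stages was 0.61 ± 0.13 (SE, adjusted p = 1.77e-05, limma). Within MO-Ct alone the log2 fold change was 0.17 ± 0.19 (SE) and did not pass (adjusted p = 0.476), and within MO-Tbx5a it was 1.04 ± 0.19 (adjusted p = 1.75e-07). The arm miR-10d-3p had 118 and 116 in MO-Ct, 58.0 and 80.6 in MO-Tbx5a, then 82.5 and 103 at 48 hpf, where the stages overlapped. Its log2 fold change of 0.04 ± 0.25 (SE) did not pass (adjusted p = 0.876).

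**Figure D2:**
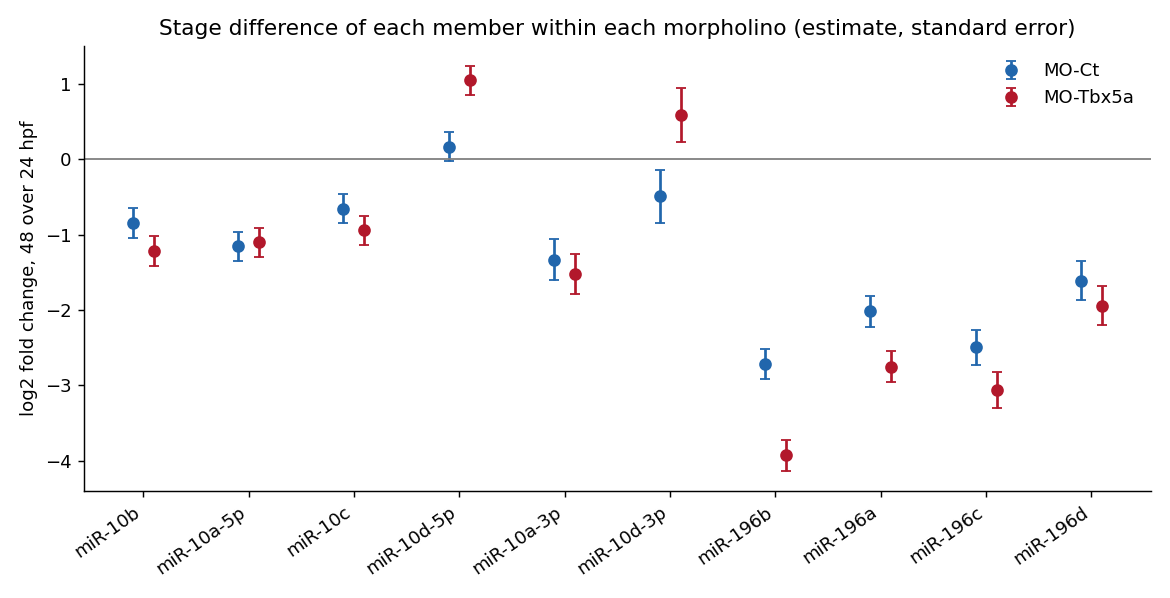
Log2 fold change of each member from 24 to 48 hpf within MO-Ct (blue) and within MO-Tbx5a (red), with the 48 hpf libraries as labelled. Points are limma estimates with their standard errors. The 4 miR-196 members are lowest in both, down to -2.72 and -3.93 for miR-196b, and miR-10d-5p is at 0.17 and 1.04.

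The largest of the 9 adjusted p values was that of miR-10d-5p. In this fit limma took the spread as known from its trend over all miRNAs, and with a spread for each miRNA the 9 adjusted p values lay between 0.000111 and 0.0165. Within MO-Ct 8 of the 10 members passed, against 49.5% of all miRNAs, and within MO-Tbx5a 9 passed, against 70.6%. With the library names at 48 hpf exchanged the counts were again 8 and 9, against 66.4% and 55.1% of all miRNAs. With exchanged names miR-196b had log2 fold changes of -3.76 within MO-Ct and -2.89 within MO-Tbx5a, the reverse of their order as labelled. Each of these tests has 1 library at 48 hpf, which was assumed to vary as the replicates at 24 hpf do. The stage was compared with 1 library per morpholino at 48 hpf, so anything particular to the preparation of those libraries cannot be told apart from the stage.

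The direction of the miR-10 change depended on the scaling of the libraries, and that of miR-196 did not. Scaled to the total of each library, of which miR-430 took a far larger share at 24 than at 48 hpf, the median of all miRNAs moved from -0.29 to 1.11. miR-10a-5p, miR-10b and miR-10c then turned to log2 fold changes of 0.27, 0.36 and 0.60, higher at 48 hpf, and miR-10a-3p to -0.04. The miR-196 members stayed lower, with log2 fold changes of -1.93 for miR-196b, -1.39 for miR-196c, -0.99 for miR-196a and -0.39 for miR-196d. All 4 still passed the test, the last with an adjusted p of 0.0393 (limma). Under library totals few of all miRNAs passed lower and most passed higher, with the counts given below. miR-10d-5p was higher at 48 hpf under each of the 4 scalings, by up to 2.00 on the log2 scale.

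**Figure D3:**
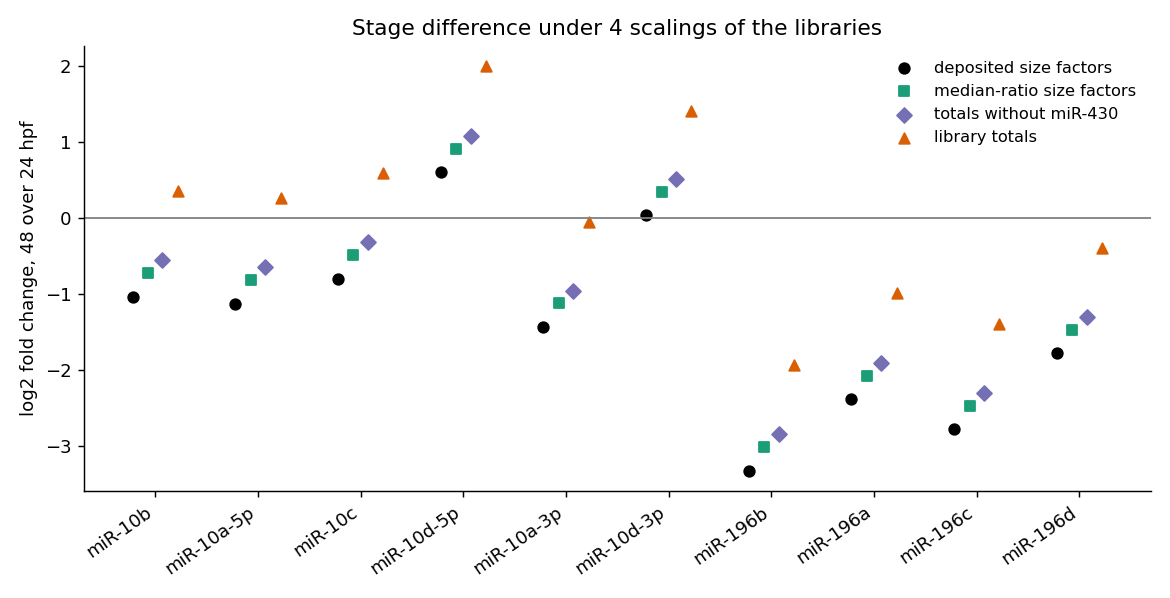
Log2 fold change of each member from 24 to 48 hpf under 4 scalings, which are the deposited size factors (black circles), median-ratio size factors (green squares), library totals without miR-430 (purple diamonds) and library totals (orange triangles). Under library totals miR-10b, miR-10a-5p and miR-10c cross above 0, to 0.36, 0.27 and 0.60, while the 4 miR-196 members stay below 0.

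The share of the reads shows the same dependence. The members together took 20.6% to 28.6% of the normalized reads at 24 hpf, and 37.7% and 31.1% in the libraries labelled MO-Ct and MO-Tbx5a at 48 hpf. With miR-430 left out of the total, they took 49.9% to 53.0% at 24 hpf, and 44.5% and 32.8% at 48 hpf. The miR-10 family made up nearly all of this. The share of the miR-196 family fell on both totals, from 0.366% to 0.398% at 24 hpf to 0.177% and 0.115% at 48 hpf with all miRNAs counted.

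Ratios between members within a library do not depend on the scaling. The ratio of miR-196b to miR-10b fell by 2.29 on the log2 scale between the stages, that of miR-196c by 1.74, that of miR-196a by 1.35 and that of miR-196d by 0.74. The ratio of miR-10d-5p to miR-10b rose by 1.64, from a mean of 0.0639 ± 0.0151 (SD, n = 4) at 24 hpf to 0.154 and 0.248 in the libraries labelled MO-Ct and MO-Tbx5a at 48 hpf. The ratio of miR-10c to miR-10b rose by 0.23. For each of these 6 ratios all libraries at 24 hpf lay on one side of both at 48 hpf. The exact permutation test, two-sided, gave p = 0.133 for each, the smallest that the test as computed here can give for 4 libraries against 2. Of all miRNAs, the levels of 65% did not overlap between the stages, and ratios of other miRNAs to miR-10b were not computed. The ratio of miR-10a-5p to miR-10b was the only one of the 9 computed whose stages overlapped, with a difference of -0.09 (exact permutation p = 0.667). At the smallest p that is allowed, no adjustment over the 9 could reach 0.05.

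Within the miR-10 5p arms, miR-10b took more than any other member in every library, 51.7% to 55.2% at 24 hpf and 51.2% and 46.5% in the libraries labelled MO-Ct and MO-Tbx5a at 48 hpf. The portion of miR-10d-5p was 2.77% to 4.38% at 24 hpf and 7.87% and 11.5% at 48 hpf. Within miR-196, the portion of miR-196b went from 49.2% to 56.0% at 24 hpf to 39.2% and 32.8% at 48 hpf. That of miR-196a went from 31.4% to 35.4% up to 44.7% and 46.3%, and miR-196d from 4.26% to 4.59% up to 7.17% and 11.0%. The portion of miR-196c, 7.97% to 11.0% at 24 hpf, held 8.86% and 9.84% at 48 hpf and so stayed within its earlier range.

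**Figure D4:**
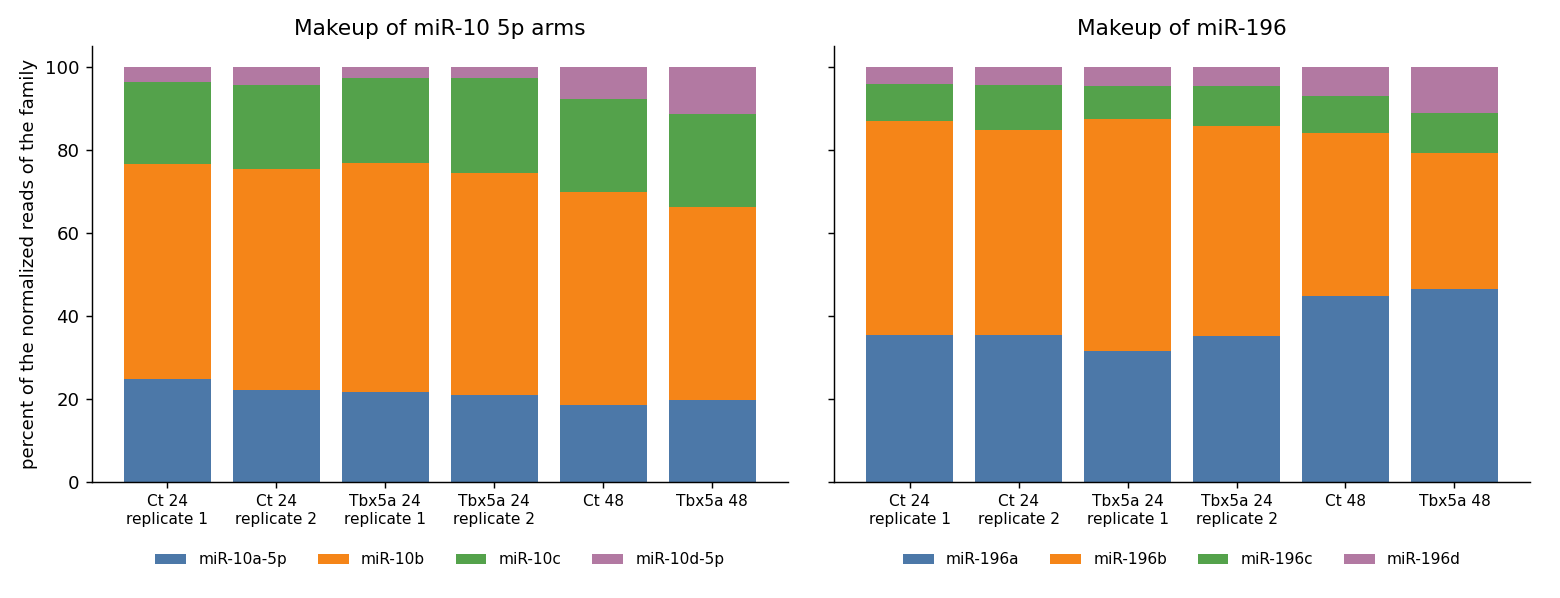
Percent of the normalized reads of the miR-10 5p arms (left) and of miR-196 (right) that each member took, stacked to 100% in each of the 6 libraries. At 48 hpf miR-10d-5p widens to 7.87% and 11.5% of its family, and miR-196a becomes larger than miR-196b.

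The arms of a precursor also shifted in ratio. In miR-10a the 5p arm had 366-fold to 483-fold the reads of the 3p arm at 24 hpf, and 513-fold and 551-fold in the libraries labelled MO-Ct and MO-Tbx5a at 48 hpf. In miR-10d it had 233-fold to 308-fold at 24 hpf, and 424-fold and 365-fold at 48 hpf. The 5p arm was thus the abundant arm everywhere, by more at 48 hpf, with differences in log2 ratio of 0.30 and 0.56 (exact permutation p = 0.133 for each). The 3p arm of miR-10d was the lowest of the members, at 58.0 to 118 normalized reads per library. Between the morpholinos at 24 hpf the arm ratio of miR-10d differed by -0.01 on the log2 scale (exact permutation p = 1), where 2 libraries against 2 cannot give less than 0.333.

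Between the morpholinos at 24 hpf, 1 of the 10 members passed the test, miR-10d-5p, which was lower in MO-Tbx5a. Among all 210 miRNAs tested, 7.62% passed, 4.29% lower and 3.33% higher in MO-Tbx5a. Both MO-Tbx5a values of miR-10d-5p, given above, were well below both MO-Ct values, with a log2 fold change of -0.77 ± 0.15 (SE, adjusted p = 4.61e-05, limma). The log2 ratio was -0.72 in replicate 1 and -0.81 in replicate 2, while replicates of 1 morpholino differed by 0.07 and 0.16. In the order of changes miR-10d-5p was at place 7 of 210 from the lowest, and its opposite arm miR-10d-3p at place 8. The log2 fold change of miR-10d-3p was -0.76 ± 0.30 (SE), and it did not pass (adjusted p = 0.0809).

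The call of miR-10d-5p depended on the spread borrowed from other miRNAs. With a spread for each miRNA its adjusted p was 0.203, and without MO-Ct replicate 1 or replicate 2 it was 0.374 or 0.237. Scaled to library totals with and without miR-430 it was 0.0953 and 0.0584. The log2 fold change itself lay between -0.58 and -0.85 under all of these.

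The other miR-10 members had negative log2 fold changes at 24 hpf that did not pass. The log2 fold change was -0.40 ± 0.17 (SE) for miR-10a-5p (adjusted p = 0.117, limma), -0.25 for miR-10a-3p, -0.21 for miR-10b and -0.16 for miR-10c. With the replicate number as a block miR-10a-5p did pass (adjusted p = 0.00325, limma), with log2 ratios of -0.54 in replicate 1 and -0.27 in replicate 2. The sources do not tie these numbers to batches shared by the morpholinos. Of the 10 members, 5 had both MO-Tbx5a libraries below both MO-Ct libraries, all of them miR-10, where 29.5% of all miRNAs did, and 6 did not overlap in either direction, where 52.4% did not. The 3 members with an unadjusted p under 0.05 were miR-10a-5p, miR-10d-3p and miR-10d-5p, against 21% of all miRNAs. With miR-430 left out of the library totals, the difference of miR-10c turned to 0.03.

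None of the 4 miR-196 members passed at 24 hpf, and none had an unadjusted p under 0.05. Their log2 fold changes were 0.17 ± 0.16 (SE) for miR-196b, 0.17 ± 0.20 for miR-196d, 0.00 ± 0.16 for miR-196a and -0.06 ± 0.18 for miR-196c. Both MO-Tbx5a libraries were above both MO-Ct libraries for miR-196d alone. The sign for miR-196a and miR-196c changed under other scalings or without 1 library.

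At 48 hpf, with 1 library against 1, no replicates of that stage were at hand. The limit for a log2 ratio was the 99th percentile of those seen between replicates at 24 hpf among miRNAs of like abundance. Of the members 1 passed its limit, miR-196b, and of all 219 miRNAs 21% did, 9.59% lower and 11.4% higher in the library labelled MO-Tbx5a. The log2 ratio of miR-196b, labelled MO-Tbx5a over labelled MO-Ct, was -1.04, with a limit of 0.85. It is one of the miRNAs whose direction at 48 hpf in the study's own material is opposite to that of the deposited columns. miR-196a was at -0.73 with a limit of 0.74, and miR-10b at -0.58 with a limit of 0.59, both just inside. The log2 ratios between replicates at 24 hpf, in MO-Tbx5a and MO-Ct, were 0.21 and 0.30 for miR-196b and -0.10 and 0.23 for miR-196a. For miR-10b they were 0.003 and 0.07. These ratios of another stage do not give the spread at 48 hpf. Of the others, miR-196c was at -0.63, miR-10c at -0.45, miR-10a-3p at -0.44, miR-10a-5p at -0.34 and miR-196d at -0.16, each within its limit. miR-10d-5p was at 0.11 and miR-10d-3p at 0.32. The median was -0.44 over the members and -0.06 over all miRNAs. If the names of these libraries were exchanged, every sign would turn. A contrast of the same libraries in the fit of all 6, added after the data were seen, takes its spread from 24 hpf. By it miR-196b (adjusted p = 0.000102, limma), miR-196a (0.00927) and miR-10b (0.0375) passed, 3 of the 10 members, where 32.2% of all 214 miRNAs passed, 18.7% lower and 13.6% higher. With a spread for each miRNA none of the members passed (adjusted p = 0.0658 for miR-196b).

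**Figure D5:**
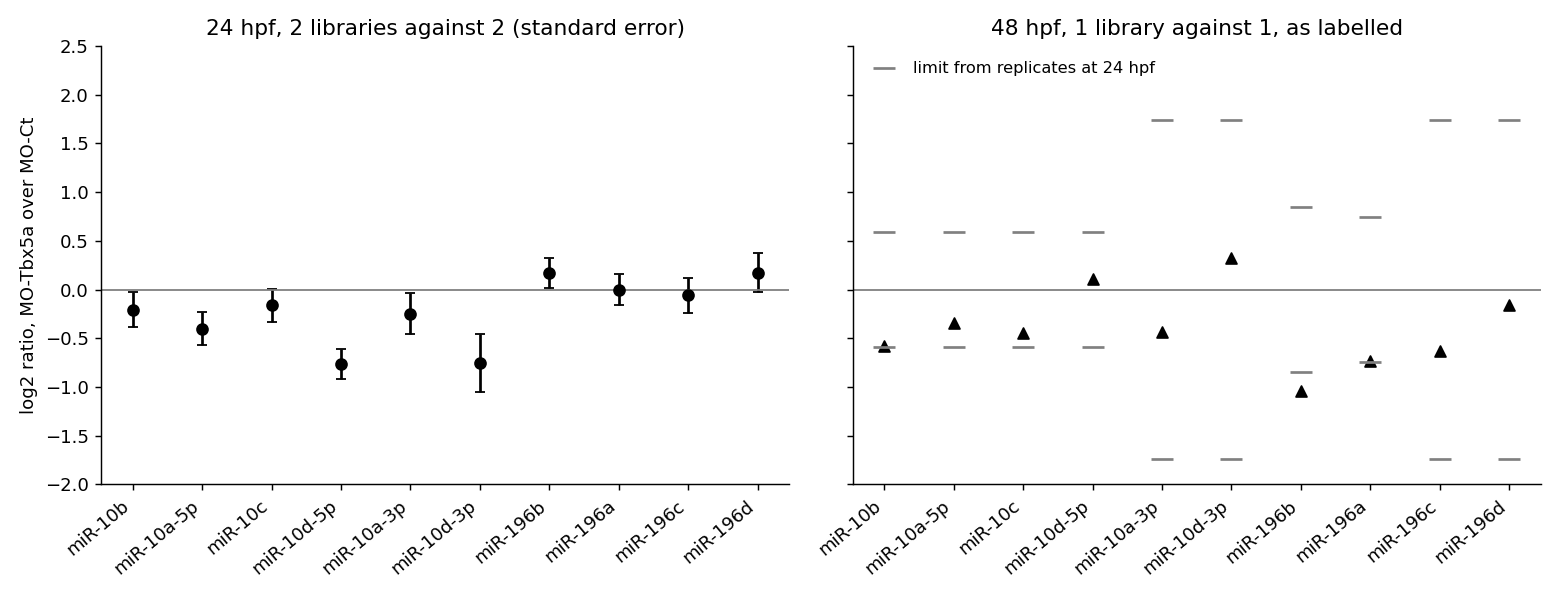
Log2 ratio of MO-Tbx5a over MO-Ct for each member at 24 hpf (left, limma estimate and standard error, 2 libraries against 2) and at 48 hpf (right, 1 library against 1, with the limit of each miRNA as grey bars on either side of 0). At 24 hpf miR-10d-5p stands at -0.77, and at 48 hpf only miR-196b, at -1.04, is past its limit of 0.85.

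Marker miRNAs of tissues and of the early embryo differed between the same libraries. The summed level of 9 miRNAs of the central nervous system was 8943 to 11192 normalized reads at 24 hpf. At 48 hpf it was 21912 and 61669 in the libraries labelled MO-Ct and MO-Tbx5a. Of the 9, 8 were higher at 48 hpf, where 26.2% of all miRNAs passed higher and 43% lower. Between the 48 hpf libraries 7 of the 9 were past their limits, all higher in the library labelled MO-Tbx5a. Of all miRNAs 11.4% were past them higher and 9.59% lower there, and these shares also apply to the lists below. The sum of 4 epidermal miRNAs went from 56185 to 64960 at 24 hpf to 37819 and 26638, with all 4 lower at 48 hpf and 3 of the 4 past their limits, lower in the library labelled MO-Tbx5a. The 4 miR-430 miRNAs were all lower at 48 hpf, and 3 of them were past their limits, again lower in that library. The sum of 8 muscle miRNAs was 6856 to 9520.3 at 24 hpf and 13111 and 10515 at 48 hpf, with 3 of them higher and 3 lower at 48 hpf. That of 5 blood miRNAs was 137 to 262 and then 261 and 521, with 2 higher and a median log2 fold change of -0.30. Between the libraries at 48 hpf, 1 muscle miRNA was past its limit, lower in the library labelled MO-Tbx5a, and no blood miRNA was. No miRNA of these 5 lists was at 0 in any library. At 24 hpf none of them passed between the morpholinos, where 7.62% of all miRNAs passed. The part of these differences in those of the members was not tested.

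The difference between the morpholinos was tested for a change between the stages, and 3 of the 10 members passed, where 33.2% of all 214 miRNAs passed this test. It compares the change from 24 to 48 hpf in the 2 morpholinos, so it uses the same libraries as the results above. For miR-196b the log2 fold change of MO-Tbx5a over MO-Ct differed, 48 minus 24 hpf, by -1.21 ± 0.29 (SE, adjusted p = 0.000228, limma), and for miR-196a by -0.73 ± 0.29 (adjusted p = 0.0380). For miR-10d-5p it differed by 0.88 ± 0.27 (adjusted p = 0.00603). At an unadjusted p under 0.05, 4 of the members and 38.8% of all miRNAs passed. With a spread for each miRNA none of the 3 passed (adjusted p from 0.0768 to 0.170, limma), and fewer of all miRNAs did, as counted below. Without 1 library at 24 hpf, which leaves 1 in a group, the call of miR-196a was lost in every case. Those of miR-196b and miR-10d-5p were lost in some cases but not in all. The difference then ranged from -1.36 to -1.06 for miR-196b and from -0.85 to -0.62 for miR-196a. For miR-10d-5p it ranged from 0.80 to 0.96. With the library names at 48 hpf exchanged, miR-196b turned to 0.87 and miR-196a to 0.73, while miR-10d-5p stayed positive at 0.66.

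Over the 6 libraries, the members other than the arms of miR-10d had like patterns. The log2 values of miR-10a-5p, miR-10b and miR-10c correlated with r of 0.970 to 0.990, and those of the 4 miR-196 members with r of 0.985 to 0.997. Between these miR-10 and miR-196 members r was 0.920 to 0.976, which overlaps the range within the miR-10 members. miR-10d-5p correlated with the other members, its own arm aside, at r of -0.736 to -0.440, and with its own arm at 0.722. These values describe 6 libraries of 2 stages and share their scaling.

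Among 185 other miRNAs, the 2 most like each member over the 6 libraries were found by the same r. For miR-196b they were miR-17a-3p (r = 0.999) and miR-430b (r = 0.998), and for miR-196a they were miR-133b-5p (r = 0.997) and miR-430b (r = 0.995). For miR-196c they were miR-20a-3p and miR-133b-5p, and for miR-196d miR-18a and miR-20a-5p. miR-10b was most like miR-2189 (r = 0.993) and miR-92a, miR-10c most like miR-2189 (r = 0.996) and miR-454b, and miR-10a-5p most like miR-20b (r = 0.998) and miR-25. miR-10a-3p was most like miR-25 (r = 0.997) and miR-92a. The least close partners were those of miR-10d-3p, which were miR-375 (r = 0.806) and miR-184 (r = 0.766). The partners of miR-10d-5p came next, with r of 0.921 for miR-1788-3p and 0.920 for miR-204, which had 2679 and 3635 normalized reads in MO-Ct, 1699 and 2341 in MO-Tbx5a and 4943 and 5703 in the libraries labelled MO-Ct and MO-Tbx5a at 48 hpf.

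miR-99 and miR-100 are relatives of miR-10 by sequence that are encoded outside the Hox clusters. Both rose between the stages. miR-100 had 3584 and 3766 normalized reads in MO-Ct and 3331 and 2850.0 in MO-Tbx5a at 24 hpf, then 5523 and 7028 in the libraries labelled MO-Ct and MO-Tbx5a at 48 hpf, a log2 fold change of 0.89 ± 0.14 (SE). miR-99 had 112 and 132 in MO-Ct and 121 and 101 in MO-Tbx5a, then 536 and 861 at 48 hpf, a log2 fold change of 2.53 ± 0.20 (SE). Like miR-10d-5p, and unlike the miR-10 members with Hox neighbours, they were higher at 48 hpf in both morpholinos, though miR-10d-5p did not pass in MO-Ct alone. This contrast holds for the deposited size factors, since under library totals miR-10a-5p, miR-10b and miR-10c were also higher at 48 hpf. Neither miR-99 nor miR-100 passed between the morpholinos at 24 hpf (adjusted p of 0.782 and 0.419), and neither was past its limit at 48 hpf.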

How the data were processed

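Per the labels and the study's methods, small RNA libraries were demultiplexed with CASAVA 1.8, adapters were trimmed, reads were mapped to zebrafish precursors of miRBase with miRExpress, and the deposited signal holds reads scaled by the authors with DESeq size factors. The labels and the methods differ on the kit and the RNA input. Rows that name the same mature miRNA were averaged, which merged 286 rows into 230 miRNAs. In each library at least 99.6% of the values were whole multiples of 1 step to within 0.1 of that step, which may be the value of 1 read. A test for counts was not used, since the values are normalized.

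On log2 of the value plus 2, limma 3.58.1 (R 4.3.3) was fitted with a trend of the variance, over miRNAs that reached 10 in 2 libraries or more. The pseudocount understates the change of low miRNAs. Tests were two-sided with Benjamini-Hochberg adjustment over all miRNAs tested and a threshold of 0.05. The fit at 24 hpf used the 4 libraries of that stage. The stage contrast, averaged over the morpholinos, and the difference between stages used all 6. At 48 hpf the limit was taken from the 100 nearest miRNAs per group. Scripts were tested on simulated data. All 10 members passed the filter in every comparison and all are named. For each, the 2 miRNAs highest in Pearson r are named. The members, lists and tests were chosen with earlier results of these data known. Other scalings, pseudocounts, filters and limits, single precursor rows, a replicate block, exchanged names and leaving out each library were tried. Fold changes listed for 48 hpf in the study's own material run opposite to the names of the deposited columns for most miRNAs, miR-196b among them, which is why those libraries are called by their labels. The other software was scipy 1.17.1, pandas 2.3.3, numpy 2.4.6 and Python 3.11.15. Sequences were not analysed here.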

Additional observations from a re-analysis of the deposited data

Results flagged for a closer look

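For 3 members the log2 fold change between MO-Tbx5a and MO-Ct differed between the stages by the limma interaction test over all 6 libraries. Of all 214 miRNAs tested, 33.2% passed it, and with a spread for each miRNA none of the 3 members passed. The difference, 48 minus 24 hpf, was 0.88 for miR-10d-5p, -0.73 for miR-196a and -1.21 for miR-196b. miR-10d-5p was lower in both MO-Tbx5a libraries at 24 hpf and had a positive log2 ratio within its limit at 48 hpf. For miR-196b the libraries of the morpholinos overlapped at 24 hpf. Its log2 fold change there, 0.17, did not pass (adjusted p = 0.589, limma). At 48 hpf its log2 ratio was negative and past its limit. With the library names at 48 hpf exchanged, the 48 hpf ratio of miR-196b is 1.04, and its difference between stages is 0.87. All 3 values rest on 1 library per morpholino at 48 hpf. No group had enough libraries for a test of single outlying libraries.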

How the results depend on the processing

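The lower level of the 4 miR-196 members at 48 hpf held in direction and call under all 18 alternatives, 2 of them added after the data were seen. Over all miRNAs, the stage calls numbered 92 lower and 56 higher, 68 and 68 with median-ratio size factors, 56 and 74 with totals without miR-430, and 14 and 168 with library totals. Under library totals the stage changes of miR-10a-5p, miR-10b and miR-10c turned to 0.27, 0.36 and 0.60. That of miR-10d-3p turned to -0.49 in MO-Ct alone and -0.18 there with exchanged names, and lay between -0.071 (without MO-Tbx5a replicate 1) and 0.16 without 1 library. The change in share from 24 to 48 hpf, in percentage points, was 9.63 for all members and 9.86 for miR-10 with all miRNAs counted, and -13.2 and -12.5 without miR-430, and for miR-196 it was -0.23 and -0.63.

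At 24 hpf the 16 calls became 0 with library totals, 2 with totals without miR-430, 6 with median-ratio size factors, 1 with no variance trend, and 0 to 14 without 1 library. The 1 member called became 0 with both kinds of totals and with no variance trend, and 0 or 1 without 1 library. The labels do not say that replicate numbers mark a shared batch, and the differences between replicates 1 and 2 in the morpholinos correlated with r = 0.279 across 210 miRNAs. With the replicate block 39 miRNAs and 2 members were called, miR-10a-5p added. miR-196a turned to -0.037 with library totals, and miR-196c to 0.13 and miR-10c to 0.028 with totals without miR-430. Without 1 library, miR-196a ranged from -0.11 to 0.11 and miR-196c from -0.18 to 0.057.

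For the difference between stages, the 71 calls became 47 with library totals, 30 with no variance trend and 15 to 58 without 1 library, and the 3 members 0 with no variance trend and 0 to 3 without 1 library. miR-10a-5p turned to -0.13 with totals without miR-430. Without 1 library, miR-10a-5p ranged from -0.076 to 0.19 and miR-10a-3p from -0.42 to 0.036. With library names at 48 hpf exchanged, miR-10a-3p turned to 0.69, miR-10b to 0.79, miR-10c to 0.61, and miR-10a-5p rose from 0.059 to 0.74 and passed (adjusted p = 0.0319, limma), while miR-196a turned to 0.73, miR-196b to 0.87 and miR-196c to 0.69, and the 48 hpf ratio of miR-196b to 1.04. At 48 hpf the 46 miRNAs past their limits became 84 with single precursor rows and 86 with the 95th percentile. The limma contrast of these libraries in the fit of all 6, added after the data were seen, called 69, and 31 with no variance trend. The 1 member became 0 with library totals, 2 with a pseudocount of 10, 3 with precursor rows and 4 with the 95th percentile. By the limma contrast it became 3, and 0 by it with no variance trend. miR-10b and miR-196a have 2 nearly equal precursor rows each, so counts with precursor rows are not comparable with counts of miRNAs. The causes were not tested.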

Other observations

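The let-7 family, known for rising late in development, was listed as a relative by sequence, since its first bases resemble those of miR-196 shifted by a base. Of its 9 members tested between the stages, 3 were higher and 1 was lower at 48 hpf, where 26.2% of all miRNAs were higher and 43% lower. Its summed level was 1036 to 1132 normalized reads at 24 hpf, 1191 in the library labelled MO-Ct at 48 hpf and 5108 in the one labelled MO-Tbx5a. Between the libraries at 48 hpf, 5 of its 10 members were past their limits, all higher in the library labelled MO-Tbx5a, where 11.4% of all miRNAs were, and at 24 hpf none of the 8 tested passed between the morpholinos.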
